A study of Mus musculus with 10 samples.

Results

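Lean epididymal fat was described in the 5 arrays of mice fed normal chow, out of 10 arrays in the series. The arrays were chosen by their titles, and each held RNA of 1 mouse. The mice were male C57BL/6J, were 8 weeks old at the start and received the chow CRF-1 for 8 weeks. The other 5 mice were fed a diet with 60% fat for the same time, and their arrays were not compared here. The RNA came from frozen fat pad with all its cell types, measured on Affymetrix expression arrays. Since the 5 chow mice form 1 group, each gene is given by its level in every array, its range over the arrays and the order of the arrays, and no test was made. The replicate numbers 1 to 5 name the arrays and have no order.

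Epididymal fat is a pad of white adipose tissue in male rodents that lies against the epididymis, the coiled duct in which sperm from the testis mature and are stored. Most of its volume is adipocytes, which store triglyceride and secrete hormones such as leptin and adiponectin. Between them run capillaries, stromal cells and macrophages, and a sheet of mesothelial cells covers the pad. The epididymal duct is lined by epithelium that secretes lipocalins, defensins and proteases into the fluid around the sperm, and it is wrapped in smooth muscle. Seminal vesicles and other accessory glands lie near the pad and add secretory proteins to the semen.

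Levels are given as log2(intensity + 16) after quantile normalization of the 5 arrays, for the brightest probe set of each of 18193 genes. A difference of 1 is 2-fold on this scale, which understates differences of dim genes. The median deposited intensity ran from 20.1 in array 5 to 27.3 in array 4. With 5 arrays, precision rests on their number, not on depth. The 7 reference genes named on the array, such as Actb and Hprt, had means between 10.57 and 10.65, and 0 of them had a 2-fold range; the range of their mean was 0.08 on this scale, 0.24 with each array centred on its median and 0.43 on the values as deposited. Of all genes, 6230 (34.2%) differed at least 2-fold between their highest and lowest chow array, and 1937 (10.6%) at least 4-fold. Without array 2 the 2-fold count was 3861. The median range over all genes was 0.74. Arrays 4 and 5 were most alike, with a Pearson correlation of 0.987 across the 18193 genes and 282 genes (1.55%) at least 2-fold apart. Arrays 2 and 5 were least alike, at 0.866 with 4289 genes (23.6%) apart. Genes are not independent replicates, so these correlations are descriptions. Array 2 was the highest array for 39.6% and the lowest for 33.6% of the genes with a 2-fold range. Array 1 was highest for 18.8% and lowest for 997 of the 6230. The shares of the highest and lowest place were 9.53% and 8.25% for array 3, 13.1% and 14.6% for array 4, and 18.9% and 27.5% for array 5.

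The signal ratios of the RNA controls also differed among the 5 arrays. The 5' to 3' ratio of the actin control, which is lower where transcripts are shortened, was 0.456, 0.368, 0.272, 0.301 and 0.307 in arrays 1 to 5. For the Gapdh control it was 0.772, 0.900, 0.688, 0.706 and 0.563. Both ratios were highest in array 1 or 2, the arrays that were also highest for the epithelial and sperm genes and lowest for the adipocyte and endothelial genes below. The part of RNA quality in any of these results was not tested. In bulk tissue, fewer cells of a type and less RNA per cell cannot be told apart.

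**Figure D1:**
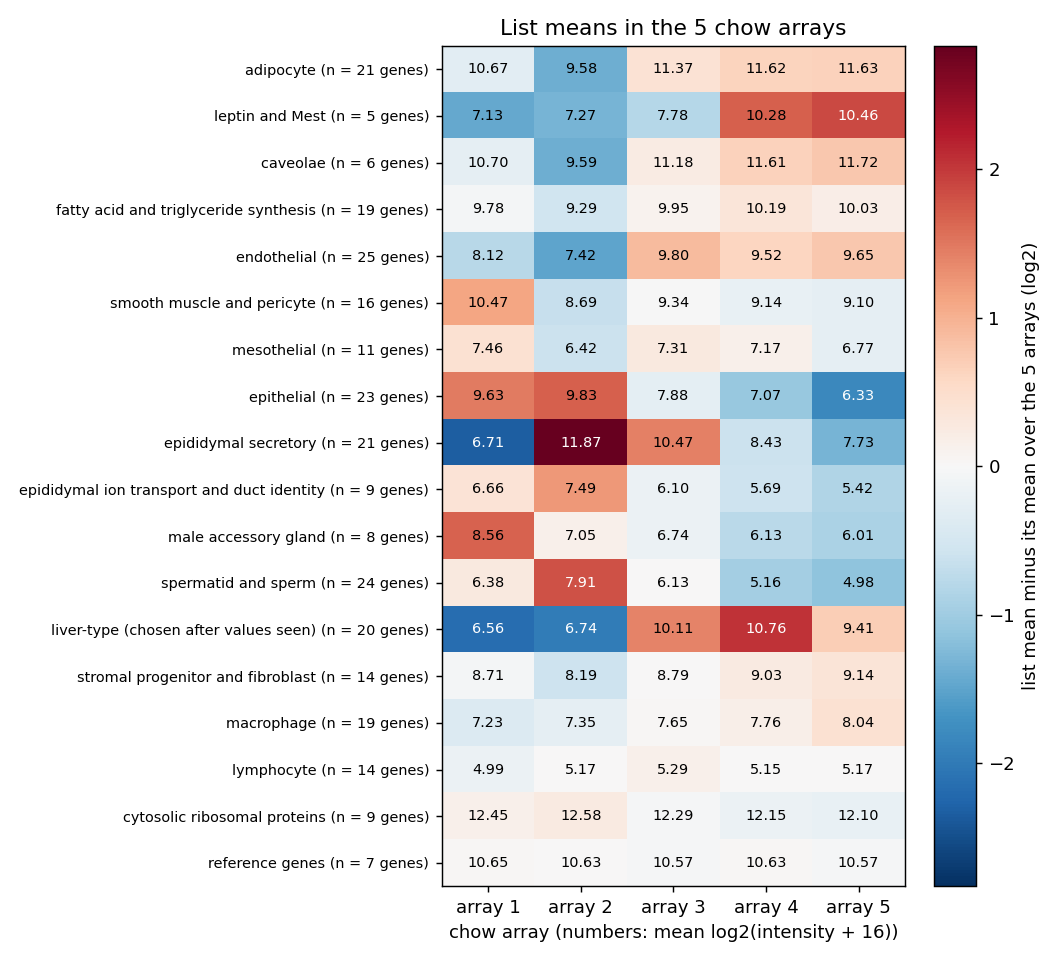
Mean log2(intensity + 16) of each gene list in each chow array, minus the list's mean over the 5 arrays, with rows for lists and columns for arrays 1 to 5; the number in a cell is the list mean itself. Adipocyte and endothelial genes were lowest in array 2, epididymal secretory genes ran from 6.71 in array 1 to 11.87 in array 2, and the reference genes differed by at most 0.08.

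Intensity ranks of single probe sets placed adipocyte genes near the top in all arrays and glandular genes there in some. Ranks were counted from the brightest of 45037 probe sets of an array, on the deposited values with no scaling, and they follow 1 probe set across arrays without ordering genes by transcript number. Fabp4, the fatty acid carrier of adipocytes, ranked 1, 4, 2, 2 and 2 in arrays 1 to 5. The brightest probe set of arrays 3, 4 and 5 was one for Gsn, the actin-severing protein gelsolin, whereas that of array 2 was Lcn5, an epididymal lipocalin. Lcn5 ranked 13822, 1, 111, 1445 and 2549 in arrays 1 to 5. The adiponectin gene Adipoq ranked 43, 336, 26, 22 and 15, high in all 5 arrays. Alb, the plasma albumin of the liver, ranked 3357, 2926, 67, 36 and 209. Svs2, a seminal vesicle secretory protein, ranked 12, 982, 888, 2751 and 3682. Of the 100 brightest probe sets of an array, 38 were shared by all 5, and 23, 34, 4, 2 and 8 belonged to arrays 1 to 5 alone. The 100 brightest held 4, 2, 5, 7 and 8 adipocyte genes and 1, 10, 2, 0 and 0 epididymal secretory genes in arrays 1 to 5.

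**Figure D2:**
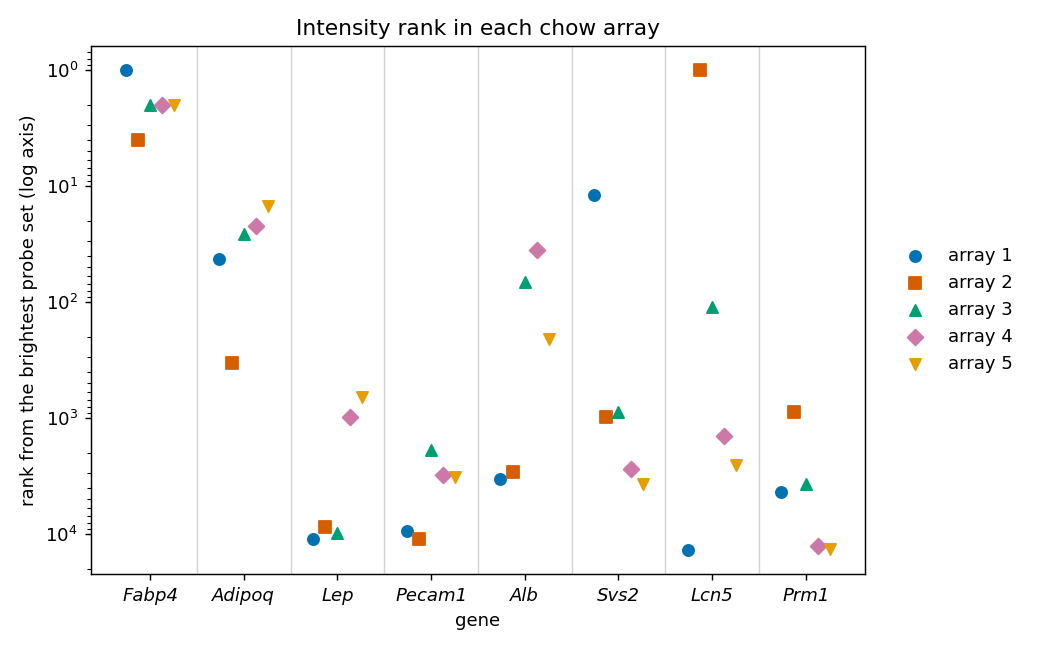
Rank of the deposited intensity of 8 genes among the 45037 probe sets of each chow array, on a log axis with rank 1 at the top; each point is 1 array. Fabp4 stays between ranks 1 and 4, while Lcn5 lies between 1 and 13822 and Svs2 between 12 and 3682.

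Adipocyte genes, the defining markers of the labelled tissue, were high in every array and lowest in array 2: the median member stood at percentile 98.5, 93.1, 99.4, 99.6 and 99.6 of all probe sets in arrays 1 to 5. The mean of the 21 adipocyte genes named on the array, out of 25, was 10.67, 9.58, 11.37, 11.62 and 11.63 in arrays 1 to 5 (10.97 ± 0.87, SD, n = 5). Array 2 stood lowest and arrays 3, 4 and 5 lay within 0.26 of each other. Of the 21 genes, 18 had a 2-fold range, against 34.2% of all genes, with a median range of 2.03. Of those 18, 17 were lowest in array 2, against 33.6% of all genes with such a range. The range of the list mean was 2.05, and 0.97 without array 2. The probe sets at the top of the intensity scale had small ranges, and dimmer probe sets of the same genes had larger ones. Fabp4 stood at 13.66, 13.43, 13.57, 13.61 and 13.61, a range of 0.24, whereas its other 3 probe sets had ranges from 1.12 to 4.01. One of these stood at 10.09, 8.10, 11.58, 11.69 and 12.00. Car3, the carbonic anhydrase abundant in adipocytes, had a range of 0.36, and its other 3 probe sets had ranges from 1.70 to 3.92. All 8 probe sets of both genes were lowest in array 2. Whether the brightest ones could still register a higher level was not tested, so their small ranges do not show a steady level. Adipoq itself stood at 12.97, 12.00, 13.12, 13.17 and 13.24.

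Genes of lipid breakdown and of the adipocyte program differed more. Lipe, hormone-sensitive lipase, stood at 10.01, 8.53, 11.14, 11.43 and 11.47. Pparg, the nuclear receptor that drives adipocyte differentiation, stood at 8.62, 7.39, 10.48, 10.57 and 10.50. For both, arrays 3, 4 and 5 were alike and array 1 lay between them and array 2. The retinol carrier Rbp4 had the largest range of the list, 3.44, with 8.79 in array 2 and 12.23 in array 4. On the values as deposited array 4 instead of array 5 was highest in the list mean. Of the 21 genes, 11 shared 1 array order, 5, 4, 3, 1, 2 from high to low, among them Cidec, a lipid droplet protein, and Pnpla2, the lipase that takes the first fatty acid from triglyceride. Slc2a4, the insulin-regulated glucose transporter, did not follow: it was highest in array 1 at 9.13 and was 7.14, 7.98, 8.35 and 8.39 in arrays 2 to 5. The 6 caveolae genes, which shape the small membrane pits of adipocytes and endothelium, were all lowest in array 2. Their mean was 10.70, 9.59, 11.18, 11.61 and 11.72, and Ehd2, which stabilises the caveolar neck, had the largest range, 3.07. Without array 2 the range of this list mean was 1.01, against 2.13 with it, and 2 of the 6 genes had a 2-fold range.

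Among 19 genes of fatty acid and triglyceride synthesis, 14 had a 2-fold range, against 34.2% of all genes, but they did not share an order. The range of the list mean was 0.90. Of the 14, 10 were lowest in array 2, against 33.6% of all genes with such a range, such as Thrsp at 10.87, 8.65, 10.36, 11.08 and 10.74, a regulator of lipid synthesis in fat and liver. Elovl6, which lengthens fatty acids, ran the other way at 9.17, 10.68, 8.63, 7.56 and 7.04, and Acly, which makes cytosolic acetyl-CoA, was also highest in array 2 at 11.76. Scd1, the stearoyl-CoA desaturase, was among the 10 probe sets with the highest mean percentile and had a range of 0.34. Its other probe set stood at 9.23, 8.87, 9.67, 10.63 and 10.65, a range of 1.78, so the small range belongs to 1 very bright probe set.

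Leptin and Mest set arrays 4 and 5 apart from the other 3 arrays. Lep, the hormone that reports fat stores to the brain, stood at 7.15, 7.67, 7.43, 10.87 and 11.32, or 125, 196, 152, 2191 and 2290 as deposited intensity. Mest, an imprinted gene whose level follows the growth of fat cells, stood at 7.42, 8.27, 8.43, 11.21 and 11.30. Arrays 4 and 5 lay above the highest of arrays 1 to 3 by at least 3.20 in Lep and 2.78 in Mest. This split was read from the Lep and Mest values themselves, so it is a description. Arrays 4 and 5 also led in common orders over all genes with a 2-fold range. The order 5, 4, 3, 1, 2 held 8.92% and 4, 5, 3, 1, 2 held 4.21% of those genes. Sfrp5, a secreted inhibitor of Wnt signalling, had the same split, at 5.77, 5.92, 5.90, 8.92 and 9.66. Npr3, the clearance receptor for natriuretic peptides, was graded instead: 7.85, 8.12, 9.64, 10.99 and 11.53. Nnat, an imprinted membrane proteolipid, was highest in array 4 at 9.41 and stood at 7.46, 6.38, 7.50 and 8.47 in arrays 1, 2, 3 and 5. All 5 of these genes had at least a 4-fold range, against 10.6% of all genes, and Bmp3, the other gene of the list, was not named here. The split is not that of the adipocyte list: array 3 was within 0.26 of arrays 4 and 5 in adipocyte mean but 3.44 below array 4 in Lep.

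**Figure D3:**
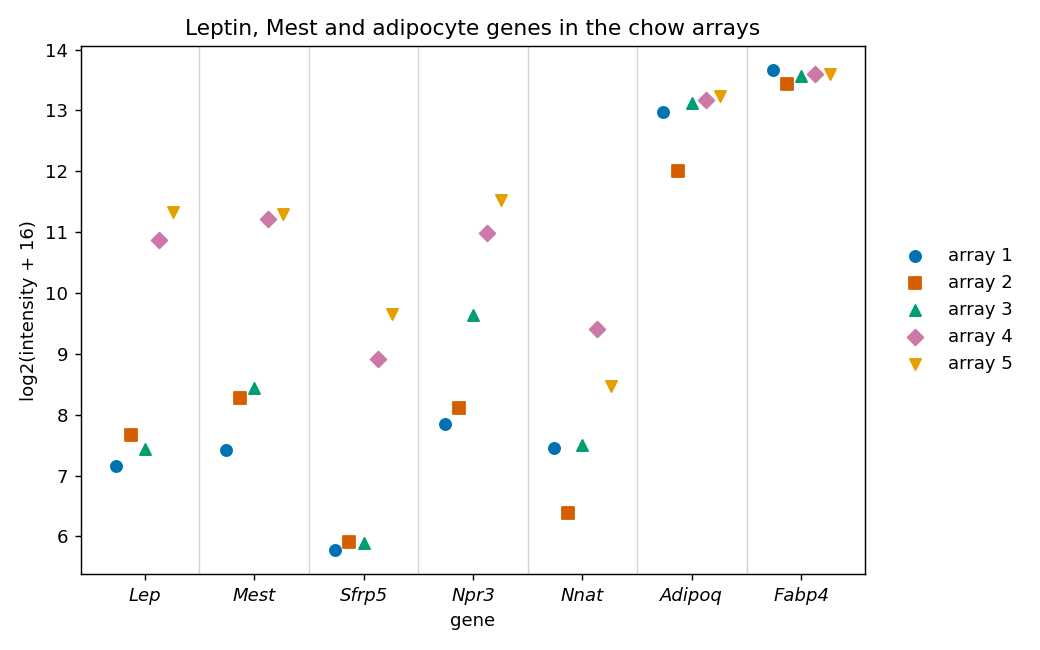
Level of Lep, Mest, Sfrp5, Npr3 and Nnat, and of Adipoq and Fabp4 for comparison, in each chow array as log2(intensity + 16); each point is 1 array. Lep, Mest and Sfrp5 lie low in arrays 1 to 3 and high in arrays 4 and 5, while Adipoq has only array 2 apart.

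Genes with the profile of Lep were searched among the 6230 genes with a 2-fold range, by the root mean square difference of the centred levels over the 5 arrays. Sfrp5 was nearest at 0.20 and Mest followed at 0.35. The next were Prelp, a proteoglycan of the extracellular matrix, Vgll3, a transcriptional cofactor, Slc6a13, a transporter of GABA and taurine, and Crtac1, an extracellular matrix protein, at 0.54 to 0.74. Vgll3 stood at 6.56, 6.08, 7.72, 9.61 and 10.27. The 6 genes nearest to Adipoq, Dram2, Cept1, Frmd4b, Hivep1, Plk2 and Bicra, lay within 0.06 of it. Ranges that are small leave less room for distance, so the distances of Lep and Adipoq are not on equal terms.

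The promoters of Lep and Sfrp5, which shared a profile, and of Adipoq, which did not, are shown because they differ in base composition. Each runs from 250 bases before to 50 after the gene start in RefSeq, build GRCm38.p6, read 5' to 3' on the gene's strand, with CG dinucleotides in capitals. Lep lies at chr6:29059971-29060270, plus strand, Sfrp5 at chr19:42202203-42202502, minus strand, and Adipoq at chr16:23146286-23146585, plus strand.
Lep: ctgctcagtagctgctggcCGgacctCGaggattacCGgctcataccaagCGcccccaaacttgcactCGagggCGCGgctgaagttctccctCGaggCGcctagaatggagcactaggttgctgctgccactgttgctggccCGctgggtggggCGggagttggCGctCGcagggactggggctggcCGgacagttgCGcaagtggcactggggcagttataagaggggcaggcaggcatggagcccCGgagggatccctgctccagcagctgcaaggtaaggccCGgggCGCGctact
Sfrp5: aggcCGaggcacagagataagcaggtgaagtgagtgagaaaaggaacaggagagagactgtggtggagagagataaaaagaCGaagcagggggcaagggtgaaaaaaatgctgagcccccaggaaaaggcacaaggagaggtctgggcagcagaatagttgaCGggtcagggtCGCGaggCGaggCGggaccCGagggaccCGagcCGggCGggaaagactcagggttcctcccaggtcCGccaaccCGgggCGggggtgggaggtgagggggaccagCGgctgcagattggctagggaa
Adipoq: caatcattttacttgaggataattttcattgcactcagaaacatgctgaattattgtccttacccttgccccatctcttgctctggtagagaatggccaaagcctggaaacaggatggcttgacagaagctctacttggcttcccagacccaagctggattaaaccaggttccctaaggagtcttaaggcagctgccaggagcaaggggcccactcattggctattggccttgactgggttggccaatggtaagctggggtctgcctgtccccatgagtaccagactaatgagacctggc
The Lep promoter holds 19 CG dinucleotides, that of Sfrp5 15 and that of Adipoq 0. The median was 15 over the 5 genes with Lep and Mest, 7 over the 15 adipocyte genes with an entry, and 17 over the 14452 genes on the array with one. These counts describe the sequence and say nothing of its use.

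Endothelial genes were lowest in array 2 and high in arrays 3, 4 and 5. The mean of 25 genes was 8.12, 7.42, 9.80, 9.52 and 9.65 (8.90 ± 1.07, SD, n = 5), so arrays 1 and 2 stood apart from the other 3. Array 3 was highest here, but on the values as deposited array 4 was, with 9.76 against 9.73. All 25 named members had a 2-fold range, against 34.2% of all genes. Of the 25, 24 were lowest in array 2, against 33.6% of all genes with such a range. Array 3 was highest for 18 of them, against 9.53% of all genes with such a range. Pecam1, an adhesion molecule of endothelial junctions, stood at 7.52, 7.16, 10.08, 9.35 and 9.31. Cdh5, the cadherin of these junctions, stood at 8.58, 7.80, 10.62, 10.31 and 10.41. Gpihbp1, which holds lipoprotein lipase on the capillary wall, was the brightest member at 10.34, 9.64, 12.13, 11.95 and 12.18. In each of these genes arrays 1 and 2 lay below the other 3 arrays, by at least 1.61. This division of the arrays was read from the values themselves. Arrays 1 and 2 were also last in common orders over all genes with a 2-fold range. The order 5, 4, 3, 1, 2 held 556 genes (8.92%) and 3, 5, 4, 1, 2 held 198 (3.18%). Aplnr, the apelin receptor, had another profile, 8.38, 7.29, 9.10, 10.04 and 10.51, with array 5 highest and array 3 between. The genes nearest to Pecam1 were Ripply3, Shank3, Klf4, Podxl, Cyp2c29 and Ednrb, at 0.09 to 0.14. Klf4, a transcription factor, stood at 9.30, 9.05, 11.73, 10.87 and 11.02.

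The liver-type genes were highest in array 4, and this list was chosen after their values had been seen. The mean of 20 plasma protein and hepatocyte enzyme genes was 6.56, 6.74, 10.11, 10.76 and 9.41 (8.71 ± 1.95, SD, n = 5). All 20 had at least a 4-fold range and were highest in array 4 and lowest in array 1 or 2. Array 4 was highest for 13.1% of all genes with a 2-fold range. The list was chosen with its values seen, so its agreement cannot be weighed against that share. Alb stood at 9.26, 9.46, 12.83, 13.03 and 12.35. Apob, the protein of very low density lipoprotein, stood at 5.50, 5.86, 9.21, 10.48 and 8.79, and Fgb, the fibrinogen beta chain, at 5.35, 5.48, 9.31, 10.49 and 8.55. Cps1, the first enzyme of the urea cycle, stood at 5.45, 6.04, 9.84, 10.39 and 9.12. The order 4, 3, 5, 2, 1 was that of 12 genes, and the other 8 had the order 4, 3, 5, 1, 2. Over all genes with a 2-fold range these orders held 1.80% and 2.68%. Hsd17b13 and Saa1, outside the list, were among the 6 genes that stood farthest above the next array in array 4, with 9.39 against at most 7.74 and 7.70 against at most 6.05.

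Mesothelial genes were lowest in array 2 and had a range of the list mean of 1.04. The mean of 11 genes was 7.46, 6.42, 7.31, 7.17 and 6.77, and 9 of them had a 2-fold range, against 34.2% of all genes. Of the 9, 8 were lowest in array 2, against 33.6% of all genes with such a range. Without array 2, 3 of the 11 had a 2-fold range. Upk3b, a uroplakin of the mesothelial surface, stood at 9.66, 6.90, 8.69, 8.31 and 7.66. Gpm6a, a membrane glycoprotein, had nearly the same values, at 9.29, 6.57, 8.67, 8.21 and 7.57. Msln, mesothelin, stood at 7.19, 5.43, 7.09, 6.85 and 6.58, and all 3 had the order 1, 3, 4, 5, 2. Wt1, the Wilms tumour transcription factor, was highest in array 3 at 6.84. Upk1b, another uroplakin that is also found in other epithelia, ran with the epithelial genes instead, at 8.36, 9.74, 8.03, 7.44 and 7.17. Aldh1a2, which makes retinoic acid, was highest in array 2 as well, at 7.44, with a range of 0.85. The genes nearest to Msln were Ppbp, Nrp2, E030024N20Rik, Nr2f1, Anxa8 and Foxp2, at 0.11 to 0.18.

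Epithelial genes were highest in arrays 1 and 2 and lowest in array 5, the reverse of the adipocyte genes. The mean of 23 genes was 9.63, 9.83, 7.88, 7.07 and 6.33 (8.15 ± 1.55, SD, n = 5). All 23 had a 2-fold range, against 34.2% of all genes. All were lowest in array 5, the lowest array for 27.5% of all genes with such a range. Of these, 17 were highest in array 2 and 6 in array 1. The order 2, 1, 3, 4, 5 was that of 17 members, and over all genes with a 2-fold range it was the commonest, with 716 genes (11.5%). Epcam, an epithelial adhesion molecule, stood at 10.81, 11.38, 9.36, 8.09 and 7.07. Cdh1, E-cadherin, stood at 10.73, 10.84, 8.89, 8.20 and 7.05, and Krt8, a keratin of simple epithelia, at 11.58, 11.66, 9.82, 9.63 and 8.48. Arrays 1 and 2 were close in these genes and array 5 was lowest. Krt19, another keratin, had the largest range, 4.81, and was highest in array 1 by 1.81 over array 2, with 11.58, 9.77, 8.18, 7.83 and 6.77. Some neighbours on a chromosome had this order: Krt8 with Krt18 on chromosome 15, and Cldn4 with Cldn3, tight junction claudins, on chromosome 5. Since 17 of the 23 members had it, this does not set neighbours apart. In other lists, neighbours with no coding gene between them differed in order, such as Kcnj8 and Abcc9, and Prm2 and Prm1. The genes nearest to Krt8 included Ocln, the tight junction protein occludin, at 0.12, Arhgef16, Mfap3l, Cds1 and Clic3.

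Epididymal secretory genes had the largest ranges in the data on this scale and split into sets by array 1. The mean of the 21 genes named on the array, out of 36, was 6.71, 11.87, 10.47, 8.43 and 7.73 (9.04 ± 2.10, SD, n = 5). All 21 had at least a 4-fold range, and 19 were highest in array 2, against 39.6% of all genes with a 2-fold range. Of the 21, 14 were lowest in array 1, against 997 of the 6230 genes with a 2-fold range, and 7 in array 5. Lcn9, a lipocalin, stood at 4.20, 13.23, 12.59, 10.38 and 9.56, a range of 9.03, the largest of all genes on this scale. Its level in array 1 lay near the lowest that the added 16 allows, so the size of the range depends on the scale: with a floor at the 5th percentile in place of the 16 it was 11.97, below Adam28 at 12.30 and Epp13 at 12.02. Cst11, a cystatin, stood at 4.23, 12.71, 11.89, 9.61 and 8.78, and Gpx5, the secreted glutathione peroxidase of the epididymis, at 5.54, 13.20, 13.11, 11.67 and 11.10. Array 1 lay below every other array by at least 5.36 in Lcn9, 4.55 in Cst11 and 5.56 in Gpx5. The order 2, 3, 4, 5, 1 was that of 14 members, and of 147 (2.36%) of all genes with a 2-fold range. The 10 genes with the largest range on this scale were lowest in array 1 and highest in array 2: Lcn9, Cst11, Cst12, Lcn8, Epp13, Rnase10, Lypd8, Pate5, Muc15 and Teddm2.

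The other 7 members were not lowest in array 1. Spink8, a serine protease inhibitor, stood at 13.23, 13.22, 12.37, 10.49 and 9.81, and Defb42, a beta-defensin, at 12.67, 12.77, 12.35, 10.45 and 9.71. Adam7, a membrane metalloprotease-like protein of the epididymis, stood at 11.16, 13.24, 12.24, 10.01 and 9.14. Defb2 stood at 11.10, 11.26, 9.43, 6.99 and 6.03, and Defb9 at 8.38, 7.86, 6.15, 4.63 and 4.44. Crisp4, a cysteine-rich sperm-binding protein, stood at 9.15, 11.87, 10.06, 7.63 and 6.93, with Lcn12 at 6.82, 11.09, 8.53, 6.34 and 5.88. All 7 were lowest in array 5, and array 1 lay above array 4 in each. Adam28, separated from Adam7 by 1 coding gene on chromosome 14, stood at 4.05, 11.75, 9.60, 7.19 and 6.33, lowest in array 1. Another Adam28 probe set stood at 4.56, 7.30, 5.33, 4.93 and 4.46, lowest in array 5 as Adam7 was, so the 2 disagree on the lowest array and on the size. Lcn8 and Lcn5, and Gpx5 and Gpx6, had no coding gene between them and the same order, which most members of the list had.

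The promoter of Lcn5, the brightest probe set of array 2, and of Prm1, a sperm gene below, are shown as the others, with CG dinucleotides in capitals, at chr2:25657702-25658001, plus strand and chr16:10796774-10797073, minus strand.
Lcn5: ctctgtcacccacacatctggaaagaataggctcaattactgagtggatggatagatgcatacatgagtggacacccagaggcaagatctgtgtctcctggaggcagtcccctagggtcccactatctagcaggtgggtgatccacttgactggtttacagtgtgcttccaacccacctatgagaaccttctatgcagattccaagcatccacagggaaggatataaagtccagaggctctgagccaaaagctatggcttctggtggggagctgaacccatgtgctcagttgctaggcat
Prm1: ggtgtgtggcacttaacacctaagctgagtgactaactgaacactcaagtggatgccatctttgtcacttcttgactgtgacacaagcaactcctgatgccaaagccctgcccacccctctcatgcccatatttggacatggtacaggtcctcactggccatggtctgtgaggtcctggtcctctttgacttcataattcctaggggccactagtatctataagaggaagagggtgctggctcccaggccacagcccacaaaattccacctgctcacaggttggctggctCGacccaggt
Lcn5 holds 0 CG dinucleotides and Prm1 1, and the medians were 3 over 16 epididymal secretory genes and 3.5 over 20 sperm genes. The motif TATAAA, on either strand, was in the Lcn5 window and in 2 of the 16. It was in all 6 accessory gland genes with an entry, against 11.5% of the genes on the array and 15.7% of all genes with a promoter entry. All but Pbsn are Svs genes that lie close together on chromosome 2, so the 6 are not independent cases. Svs3a and Pbsn had ranges of only 0.47 and 0.31 over the arrays.

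The genes nearest to Lcn5, used as the epididymal reference because Crisp1 was not named here, were Ap1s2, Slc38a5, Cstdc2, Defb15, Teddm2 and Muc15, at 0.07 to 0.34. The Ap1s2 probe set stood at 5.90, 12.82, 11.87, 9.76 and 8.98. Another Ap1s2 probe set stood at 7.14, 8.91, 8.26, 8.12 and 7.74, with a much smaller range, so the 2 disagree on its size. Ion transport and duct identity genes of the epididymis differed among themselves. Pax8, a transcription factor of the male tract, stood at 9.54, 9.36, 7.56, 6.65 and 5.97, and Aqp9, an aquaporin, at 10.32, 10.13, 8.58, 7.73 and 7.46, both high in array 1. Cftr, the chloride channel, was at 4.04 in array 1 and 7.94 in array 2.

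**Figure D4:**
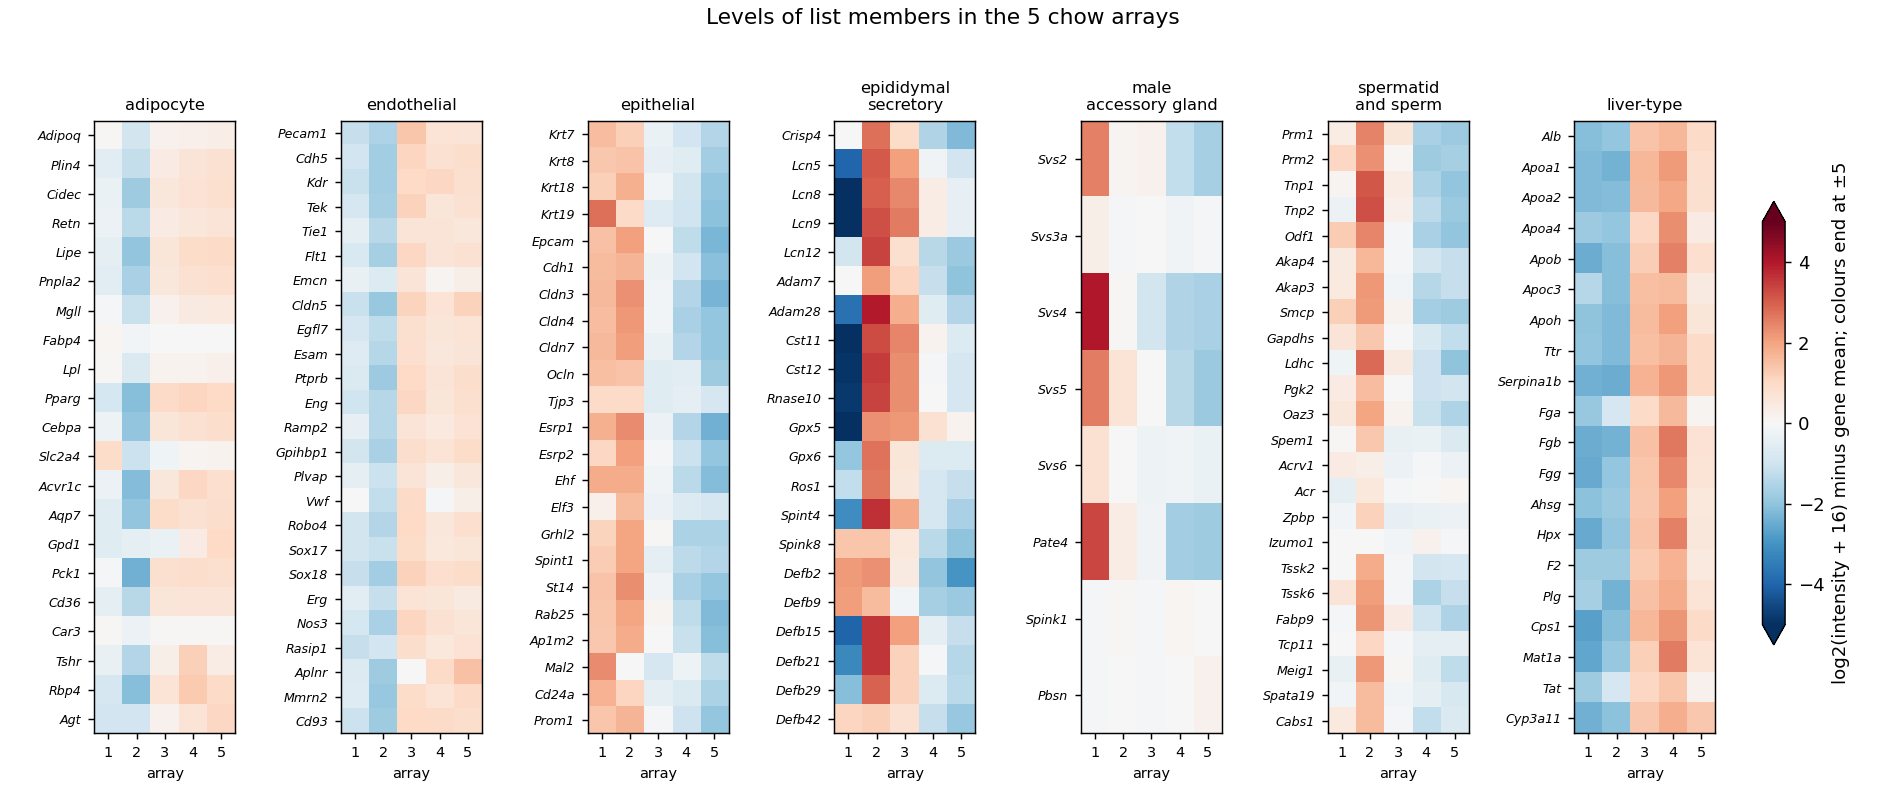
Level of each named member of 7 lists in each chow array, as log2(intensity + 16) minus the gene's mean over the 5 arrays; rows are genes, columns are arrays 1 to 5. Of the epididymal secretory genes 14 have array 1 lowest and 7 have array 5 lowest. All 20 liver-type genes, a list chosen after values were seen, have array 4 highest.

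Accessory gland and contractile genes were highest in array 1. Of 8 accessory gland genes named, 5 had a 2-fold range, and all 5 were highest in array 1, the highest array for 18.8% of all genes with such a range, and lowest in array 5. Svs2 stood at 13.29, 10.88, 10.99, 9.54 and 9.11, and Svs5 at 13.15, 11.26, 10.60, 9.22 and 8.74. Svs4, another seminal vesicle secretory protein, stood at 10.79, 6.85, 5.90, 5.28 and 5.18, and Pate4, a small secreted protein, at 12.92, 9.95, 9.39, 7.84 and 7.79. Array 1 lay above all other arrays by at least 1.89 in each. The probe sets of Svs4 and Svs5 are of types that may match related transcripts. When such probe sets were left out, the list held 6 genes, and 3 of these had a 2-fold range. The range of the list mean was 2.55, and 1.04 without array 1. Spink1, a trypsin inhibitor, and Pbsn, probasin of the prostate, stayed between 4.09 and 4.51 in all arrays.

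Contractile genes of smooth muscle shared the high array 1. Cnn1, calponin, stood at 12.22, 9.05, 8.41, 7.44 and 6.99, and Myh11, the smooth muscle myosin heavy chain, at 12.85, 10.28, 9.86, 8.86 and 8.47. Des, desmin, stood at 10.80, 7.89, 8.04, 7.67 and 7.64. All 16 smooth muscle and pericyte genes had a 2-fold range, against 34.2% of all genes. Of the 16, 11 were highest in array 1, against 18.8% of all genes with such a range, among them Cspg4 and Kcnj8, which are found in pericytes. The range of the list mean was 1.78, and 0.65 without array 1. The other 5, Rgs5, Pdgfrb, Notch3, Abcc9 and Mcam, which mark pericytes, were highest in array 5. Pdgfrb, the receptor of platelet-derived growth factor, stood at 8.82, 7.93, 10.12, 10.40 and 10.57. Actg2, the enteric actin, was high in array 2 as well: 12.67, 12.21, 10.50, 8.84 and 8.22. The 6 genes that stood farthest above the next array in array 1 were Sost, Fxyd4, Smpx, Svs4, Rims1 and Tnnc2. Sost, the bone-derived Wnt inhibitor sclerostin, stood at 10.40, 6.15, 5.65, 5.17 and 5.33. Of 8 skeletal muscle genes 2 had a 2-fold range, against 34.2% of all genes, and both were highest in array 1. Ckm, muscle creatine kinase, stood at 9.80, 6.48, 5.54, 5.09 and 5.44, and Acta1 at 11.44, 8.21, 8.61, 10.01 and 10.85. Myh1, Myh4 and Mylpf, genes of fast skeletal fibres, stayed between 4.04 and 5.18 in all arrays.

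Sperm genes were highest in array 2 in every member with a 2-fold range. The mean of 24 genes was 6.38, 7.91, 6.13, 5.16 and 4.98 (6.11 ± 1.17, SD, n = 5), and 21 had a 2-fold range, against 34.2% of all genes. Array 2 was the highest array for 39.6% of all genes with such a range. The range of the list mean was 2.93, and 1.40 without array 2. Prm1, a protamine that packs sperm DNA, stood at 8.87, 10.99, 9.10, 6.87 and 6.67. Tnp2, a transition protein that precedes the protamines, stood at 6.37, 9.89, 6.90, 5.35 and 4.78, the largest range of the list, 5.10. Odf1, of the outer dense fibres of the tail, stood at 8.26, 9.44, 6.90, 5.37 and 5.01. In these 3 genes array 2 was highest, arrays 1 and 3 lay between and arrays 4 and 5 were lowest, and array 1 was not low as it was for Lcn9. Acrv1, Acr and Izumo1, genes of the acrosome and of egg fusion, had ranges under 1 at levels of at most 5.82. Of the germ cell genes that act before the spermatid stage, Dazl reached at most 4.95, Sycp1 5.43 and Ddx4 6.34. Sycp3, of the meiotic chromosome axis, was brighter and ran another way, at 7.03, 6.57, 8.09, 8.27 and 8.24. Tnp2 and Tnp1 were also among the 6 genes that stood farthest above the next array in array 2. The genes nearest to Prm1 were Cad, Myo3b, Capn5, Rhbg, Crisp4 and Asb11, at 0.20 to 0.30.

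The list means of stromal, macrophage and lymphocyte genes had ranges of 0.95, 0.81 and 0.30. Of 14 stromal genes 12 had a 2-fold range, against 34.2% of all genes. Of the 12, 9 were lowest in array 2 and 8 highest in array 5, against 33.6% and 18.9% of all genes with such a range, such as Col3a1, a fibrillar collagen, at 11.56, 9.78, 11.01, 11.62 and 12.09. Pdgfra, a receptor of stromal progenitors, was the reverse, highest in array 2 at 10.55 against 8.16, 9.11, 8.54 and 8.76. The macrophage mean was 7.23, 7.35, 7.65, 7.76 and 8.04. Of 19 macrophage genes 14 had a 2-fold range, against 34.2% of all genes, 10 of them highest in array 5, against 18.9%. Cd163, a haemoglobin scavenger receptor, was one of these at 7.15, 6.45, 8.31, 8.60 and 8.83. Of 14 lymphocyte genes 2 had a 2-fold range, Ighm at 8.13, 9.32, 9.70, 9.56 and 10.40 and Cd8a with a range of 1.09. The 9 proliferation genes had 0 members with a 2-fold range. Cytosolic ribosomal proteins were at 12.45, 12.58, 12.29, 12.15 and 12.10, with 0 of 9.

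Some genes of stress, time of day and thermogenesis also differed between arrays. The range of the list mean was 0.34 for clock, 0.48 for immediate early and 0.55 for heat shock genes. It was 1.11 for thermogenic genes and 1.16 for genes of the fasting and glucocorticoid response. Of 15 clock genes 9 and of 14 immediate early genes 7 had a 2-fold range, against 34.2% of all genes. Dbp, a clock output gene, stood at 9.59, 7.89, 6.96, 6.82 and 6.63, while Per2, a core clock gene, had a range of 0.58. Nr1d1, a clock repressor, was lowest in array 2 at 4.60 and highest in array 5 at 7.14. Ucp1, the uncoupling protein of thermogenic fat, stood at 6.47, 4.41, 4.07, 4.07 and 4.44, and Cidea, which accompanies it in brown fat, at 7.80, 5.46, 5.01, 5.39 and 5.18. Both had array 1 highest, as had the mean of the 7 thermogenic genes, at 6.30, 5.19, 5.50, 5.88 and 5.74. Cox7a1 was also highest in array 1, at 7.04, 6.13, 5.08, 6.01 and 5.60, but not all members were. Of the 7, 0 had a mean level above the median of all genes, so the sizes of these ranges depend on the scale. Of the 7, 6 had a 2-fold range, against 34.2% of all genes. Of the 6, 3 were highest in array 1, against 18.8% of all genes with such a range. Elovl3, which lengthens fatty acids in brown fat, stood at 5.29, 5.33, 6.80, 7.43 and 6.42, and Cox8b, a subunit of cytochrome oxidase, at 7.23, 4.18, 6.06, 7.14 and 7.25. Egr2, an early response transcription factor, stood at 7.86, 10.90, 8.60, 5.88 and 5.93, whereas Egr1 had a range of 0.64. Of 10 genes of the fasting and glucocorticoid response 9 had a 2-fold range, against 34.2% of all genes. Of the 9, 6 were lowest in array 2, against 33.6% of all genes with such a range. Angptl4, an inhibitor of lipoprotein lipase, stood at 10.70, 9.43, 12.00, 12.10 and 12.31. Of 7 heat shock genes 3 (42.9%) had a 2-fold range, against 34.2% of all genes. Hspa1b, a heat shock chaperone, stood at 11.46, 10.83, 10.38, 9.52 and 9.12, while Hspa8 and Hsp90aa1 had ranges of 0.34 and 0.36.

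Single genes stood apart in arrays 3, 4 and 5. In array 3 Irf4, a transcription factor induced by fasting in fat, stood at 9.39 against 7.02, 6.66, 7.35 and 6.85 in arrays 1, 2, 4 and 5, and Gadd45g, a stress-induced gene, at 10.26 against at most 8.84. In array 4 Usp9y, a deubiquitinase of the Y chromosome, stood at 10.12 against 4.71, 4.41, 5.70 and 7.65 in arrays 1, 2, 3 and 5, and all 5 mice were labelled male. The other Y-linked genes Eif2s3y, Kdm5d and Uty had ranges of 0.41, 0.70 and 0.81. In array 5 Bcl6, a transcriptional repressor, stood at 10.04 against at most 7.96, and Mmp12, a macrophage elastase, at 7.73 against at most 6.45. Hspb7, a small heat shock protein of muscle, was graded, at 7.65, 6.34, 6.27, 8.79 and 10.15.

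Array orders were counted over all 6230 genes with a 2-fold range. After the epithelial order, the commonest was 5, 4, 3, 1, 2, that of 11 adipocyte genes, with 556 genes (8.92%). The order 1, 2, 3, 4, 5, that of Svs4, Svs5, Pate4, Cnn1 and Myh11, held 301 genes (4.83%), and 4, 3, 5, 1, 2 held 167 (2.68%). The first principal component of the centred levels took 64.8% of the variance, with array 2 at 81.3 and array 5 at -54.3 as its ends. The second took 23.7%, with array 1 at 58.8 and array 2 at -37.7 as its ends.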

How the data were processed

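The authors deposited a linear intensity per array for 45101 probe sets. The sources used here do not give their summary algorithm, scaling or genome build. Per the labels, biotin-labelled cRNA was made from the total RNA of each mouse. Groups came from the sample titles. Gene values leave out 64 control probe sets. Of the other 45037, 34945 had exactly 1 symbol in the platform annotation, updated through gene IDs to RefSeq, 932 had several and 9160 were not listed there. From the deposited intensity, log2(intensity + 16) was computed after quantile normalization of the 5 chow arrays, and the brightest probe set stood for each of 18193 genes. A gene was called variable at a range of 1 or more (2-fold). No test was made within 1 group. Of other probe sets of list genes with a 2-fold range, 172 in all, 126 had the same highest and 134 the same lowest array.

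Members and the 30 lists, with 365 of 414 genes named, were chosen with earlier results of these data known. The rule names, per list, the 8 members with the largest ranges and the 3 brightest, then the genes highest in mean percentile, largest in range, farthest above or below the next array, or nearest to a reference gene; genes of a list that a description is about could be added. The liver-type list and the use of Lcn5 in place of Crisp1, and the Y-linked genes Eif2s3y, Kdm5d and Uty, were added after values were seen. Alternatives were the values as deposited, median centring, quantile normalization over 10 arrays, a floor, a pseudocount of 64, other choices of probe set, a filter on dim genes and each array left out. Steps were tested on simulated data and run in Python 3.11.15 with numpy 2.4.6 and pandas 2.3.3.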

Additional observations from a re-analysis of the deposited data

Results flagged for a closer look

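Each list mean and named gene was checked for 1 array far from the other 4, which chance gives in about 1 of 20 such groups. Of 30 list means 2 stood out. Skeletal muscle was at 6.05 in array 1 against at most 5.37, and 2 of its 8 genes had a 2-fold range, Ckm and Acta1. Proliferation was at 5.28 in array 3 against at least 5.55. Its range was only 0.34, and 3 of 7 alternatives that keep all 5 arrays kept both its highest and lowest array. Of 169 named genes 21 stood out; some were named because 1 array stood apart, so the count is a description.

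Array 2 was the low array for 11 genes: Adipoq at 12.00, Car3 at 13.22, Scd1 at 12.97, Kcnj8 at 6.81, Nrp2 at 6.63, E030024N20Rik at 4.11, and the neighbours of Adipoq, which share its profile by choice, Dram2 at 8.89, Cept1 at 8.60, Frmd4b at 8.48, Hivep1 at 6.97 and Bicra at 5.73. Array 1 was the high array for Cidea at 7.80, Ucp1 at 6.47, Des at 10.80, Sost at 10.40 and Rims1 at 9.47, and the low array for Gpx5 at 5.54 and Uty at 7.01. Irf4 was high in array 3 at 9.39, Cd8a low in array 3 at 5.06, and Pbsn high in array 5 at 4.51, within a range of 0.31.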

How the results depend on the processing

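No paired analysis was possible because the labels give 1 group here, the 5 chow arrays, and its replicate numbers pair nothing within it. With all 5 arrays kept, the ranges of the 30 list means gave 237 values under the alternatives: 206 moved by less than the SD between arrays, 31 by more, and 201 kept both the highest and the lowest array. With a floor at the 5th percentile in place of the pseudocount, the sperm range was 4.16 against 2.93, 8 of 8 accessory gland genes had a 2-fold range against 5, and 11225 genes did against 6230. Among genes above the median level alone, fewer genes are kept: the sperm range was 4.20 with 9 genes at 2-fold against 21, the accessory gland range 4.83 against 2.55, and 3466 genes had a 2-fold range. A pseudocount of 64 gave 3507 genes. Leaving out probe sets that may match related transcripts left 6 of the 8 accessory gland genes, 3 of them at 2-fold.

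With each array left out in turn, the range ran from 0.97 to 2.05 for adipocyte genes, 1.01 to 2.13 for caveolae (2 to 6 genes at 2-fold), 0.65 to 1.78 for smooth muscle, 1.04 to 2.55 for accessory gland and 1.40 to 2.93 for sperm genes. The 2-fold count ran from 3 to 9 for mesothelial genes and from 3861 to 5876 for all genes. The liver-type range was 3.53 to 4.70 over 8 alternatives, all with array 4 highest and array 1 lowest. The share of the first principal component, which has no replicate spread, was 49.8% with the floor and 69.6% among genes above the median level, against 64.8%. On the values as deposited the adipocyte, leptin, caveolae and endothelial means were highest in array 4 and kept their lowest array. The reference gene range was 0.43 on the values as deposited, against 0.08. Dim genes depend most on the choice of scale, and signal over background cannot be judged without detection calls, which were not used here.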
